A study of Mus musculus with 44 samples.

Results

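Beta-1 integrin and 9 of the alpha subunits that pair with it were followed across the skeletal hierarchy. The members were the genes of the count table with the symbols Itgb1, Itga1, Itga2, Itga3, Itga4, Itga5, Itga6, Itga9, Itga10 and Itga11, which are 10 of the 46831 genes analysed. All 10 were found. Skeletal cells of mice at postnatal day 3 were sorted from the growth plate region of limb bones as CD45, Ter119 and Tie2 negative cells into the skeletal stem cell (SSC), the pre-bone cartilage and stromal progenitor (pBCSP), the bone cartilage and stromal progenitor (BCSP) and 5 downstream populations, PCP (pro-chondrogenic progenitor), THY (the Thy subpopulation), BLSP (B-cell lymphocyte stromal progenitor), 6C3 (the 6C3 subpopulation) and HEC (hepatic leukemia factor expressing cell). For each population, RNA bound by an antibody against m6A (IP) and the RNA before enrichment (input) were sequenced by SLIM-seq in 2 replicates. The strain of all libraries is C57Bl6, the mice called WT carry Mettl3 fl/fl without Cre, and WT libraries exist for all 8 populations. SSC, pBCSP and BCSP also came from Mettl3 fl/fl;Col2a1-Cre mice, labelled Mettl3cko, in which Cre is driven by the promoter of type II collagen and so acts in cells that make this collagen, not in the whole animal. The libraries came from bulk populations, in which fewer cells of a type and less RNA per cell cannot be told apart.

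Integrins are heterodimers of an alpha and a beta subunit that hold cells to the extracellular matrix and connect it to the actin cytoskeleton. The beta-1 subunit is shared by many receptors, and the alpha subunit sets the ligand. Itga1, Itga2, Itga10 and Itga11 form the collagen receptors, Itga3 and Itga6 form laminin receptors, Itga5 forms the main fibronectin receptor, Itga4 binds fibronectin and Vcam1, and Itga9 binds tenascin C and other matrix proteins. Beta-1 integrin is known to be needed for the shape and division of growth plate chondrocytes, and alpha-10 is the collagen receptor typical of cartilage. m6A is a methyl mark on adenosine that Mettl3 and its partners write within a short consensus that includes GGACU and often lies near stop codons.

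The members hold this consensus in different numbers. The letters GGACT were searched on the sense strand of the longest coding transcript of each gene in GENCODE vM21 (GRCm38). The most copies were in Itga1, with 13 (1.19 per kb), and Itga4, with 10 (1.02 per kb). Itga10 held 9 copies (1.78 per kb), Itga5 held 8 (1.83 per kb), Itga6 held 3 (0.722 per kb) and Itgb1 held 2 (0.524 per kb). Of 21702 protein-coding genes, 87.2% held at least 1 copy, with a median of 1.02 per kb, and 35.9% held a copy within 200 bases of the end of the coding sequence. Itga3, Itga6 and Itga10 held no copy in that window, and each other member held 1. The copy nearest that end is shown for the 3 alpha subunits that most often passed the m6A threshold (Itga10, Itga6, Itga9), for the 2 members whose IP lay below the input in each WT pair (Itga5, Itgb1), and for Itga11. Capitals mark the motif.
Itga10: tgctggcaaaggGGACTgagatctctgtc
Itga6: aggcttttcactGGACTcagggaagggta
Itga9: tgaagatggttgGGACTgggtccagaaaa
Itga5: tccgacagggagGGACTaggcacttcctg
Itgb1: aatccatgccagGGACTgacagaagactt
Itga11: gaggacacccatGGACTttacattgagtt
The Itga10 copy lay in coding exon 27 of 30 (chr3:96658219-96658247, plus strand), 329 bases before the last coding base. For Itga6 the nearest copy spanned the junction of exons 6 and 7 of 26 on chromosome 2 (plus strand), 2488 bases before the end of the coding sequence. The Itga6 transcript searched has 4156 bases with a 3′ UTR of 756, while the gene has 9025 exon bases, so copies in other transcripts were not seen. The Itga9 copy was in the last exon, 22 bases before that end (chr9:118897296-118897324, plus strand). The copies of Itga5 (chr15:103345192-103345220, minus strand), Itgb1 (chr8:128732254-128732282, plus strand) and Itga11 (chr9:62782788-62782816, plus strand) lay in the 3′ UTR, 63, 180 and 103 bases past the coding sequence. A match of letters is not a measured m6A site, because the counts are per gene and hold no position. At Itga10, 33.5% of the exon bases are shared with Gm42957 on the same strand, a gene model with a row of its own, and at Itga4, 8.04% overlap Cerkl on the opposite strand, so counts of these 2 members are the least certain.

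The WT input libraries held about 19795700 to 44046700 counted reads and the WT IP libraries 16480000 to 35856700. The libraries labelled Mettl3cko held 30050200 to 35325500 (input) and 22056600 to 33126900 (IP). Among the input libraries, Ptprc, the gene of CD45, was at 0 in 6 of 6 WT SSC, pBCSP and BCSP libraries, and the summed level of 5 leukocyte markers was 1.21 to 2.52 CPM there (counts relative to the library size after TMM scaling) and 1.43 to 4.56 downstream. Chondrocyte markers summed to 88074 to 105040 CPM in the stem and progenitor libraries and to 7726 to 100092 downstream, while osteoblast markers summed to 5388 to 11213 and to 66466 to 146656. Most of the osteoblast sum was Col1a1, at 4129 to 11033 and 65886 to 146307 CPM. The other 5 osteoblast markers overlapped between these 2 groups of libraries. Of the sort markers, Thy1 (a log2 difference of -5.35) and Enpep, the gene of 6C3 (-1.83), were lower in the stem and progenitor mean than in the downstream mean, Cd200 was higher (1.26), and Eng, the gene of CD105, did not pass (0.14). Erythroid markers were at 0.702 to 5.64 CPM in the stem and progenitor libraries and at 17.8 to 148 downstream.

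Itgb1, the beta subunit, was lower in every SSC, pBCSP and BCSP library than in every downstream library. The WT input CPM of the 2 replicates was 318 and 252 in SSC, 377 and 374 in pBCSP, and BCSP had 238 and 260. In PCP it was 688 and 780, in THY 911 and 771, in BLSP 642 and 646, in 6C3 623 and 605, and in HEC 516 and 558. THY was the highest population and BCSP the lowest, 3.37-fold apart, and the only neighbours in this order whose replicates overlapped were THY with PCP and SSC with BCSP. On the log2 scale, the mean of SSC, pBCSP and BCSP was below that of the 5 downstream populations by a difference of -1.16 ± 0.09 (SE), with an adjusted p of 6.91e-08 in edgeR's quasi-likelihood F test.

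**Figure D1:**
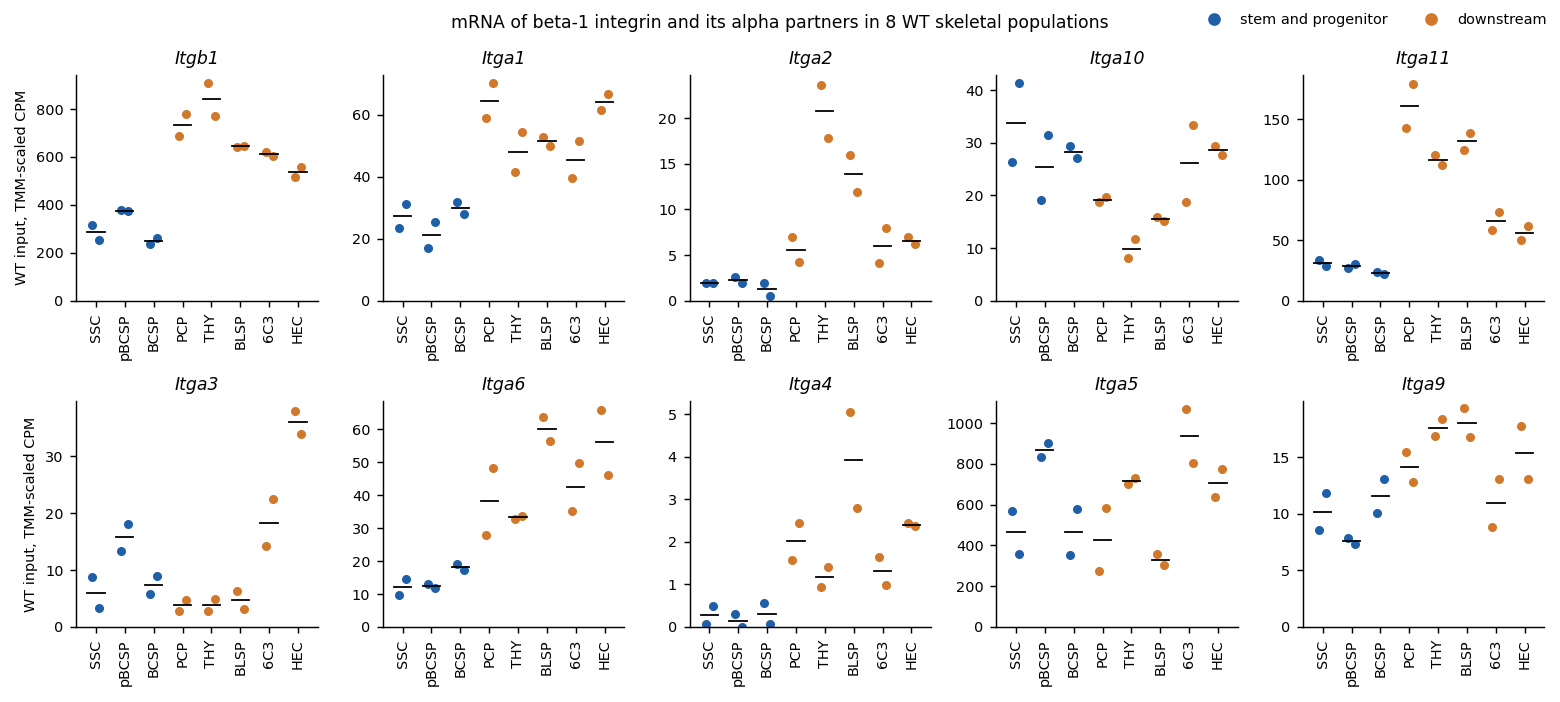
Input CPM (TMM-scaled, linear axis from 0) of each member in the 2 libraries of each WT population, with stem and progenitor populations in blue, downstream populations in orange and the mean as a line. For Itgb1, Itga1, Itga2, Itga4, Itga6 and Itga11 all 6 blue points lie below all 10 orange points, whereas for Itga3, Itga5, Itga9 and Itga10 the colours overlap. The share of all genes that separate in this way was not counted.

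Of the 4 collagen receptor subunits, 3 followed Itgb1 and Itga10 went the other way. Itga11 was at 33.8 and 28.9 CPM in SSC, 26.8 and 30.5 in pBCSP, and BCSP had 24.0 and 22.2. Downstream it reached 143 and 179 in PCP, 124 and 139 in BLSP and 121 and 112 in THY, and was at 58.8 and 73.0 in 6C3 and 50.4 and 62.0 in HEC. The groups did not overlap, and the log2 difference was -1.84 ± 0.11 (SE, adjusted p = 2.91e-09). Itga1 ranged from 17.1 to 31.97 CPM in the stem and progenitor libraries and from 39.6 to 70.4 downstream, highest in PCP (58.9 and 70.4) and HEC (61.5 and 66.9), which overlapped. Its log2 difference was -1.06 ± 0.13 (SE, adjusted p = 5.79e-06). Itga2 was scarce in the stem and progenitor libraries, at 0.511 to 2.56 CPM, and was concentrated in THY (23.6 and 17.8) and BLSP (15.9 and 11.9), with 4.18 to 7.91 in PCP, 6C3 and HEC. The difference for Itga2 was -2.38 ± 0.27 (SE, adjusted p = 2.65e-06).

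Itga10 was at 26.3 and 41.3 CPM in SSC, 19.2 and 31.5 in pBCSP, and BCSP had 29.4 and 27.1. Among downstream populations it was at 29.4 and 27.7 in HEC, 18.8 and 33.4 in 6C3, 18.7 and 19.6 in PCP, 15.8 and 15.2 in BLSP and 8.14 and 11.7 in THY. Both HEC libraries lay within the stem and progenitor range, BLSP and THY lay wholly below it, and 6C3 and PCP each had 1 library below it and 1 within it. The mean of the stem and progenitor populations was higher by 0.64 ± 0.16 on the log2 scale (SE, adjusted p = 0.00358), the only rise among the members.

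The laminin receptor subunits were unlike each other. Itga6 was at 9.62 to 19.2 CPM in the stem and progenitor libraries and at 27.9 to 65.8 downstream, led by BLSP (63.8 and 56.3) and HEC (65.8 and 46.1), with a log2 difference of -1.68 ± 0.16 (SE, adjusted p = 3.13e-07). Itga3 had no order along the hierarchy (0.06 ± 0.24, adjusted p = 0.884). It was highest in HEC at 38.0 and 33.9 CPM, followed by 6C3 at 14.2 and 22.4 and pBCSP at 13.4 and 18.2, and was at 2.76 to 8.97 CPM in the other 5 populations. HEC did not overlap any other population, and stood above the mean of the other 7 by 2.32 ± 0.29 on the log2 scale (adjusted p = 9.42e-05).

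Itga5, the fibronectin receptor subunit, was by far the most abundant alpha subunit and did not follow Itgb1. Its CPM was 1070 and 805 in 6C3, 835 and 903 in pBCSP, 700 and 733 in THY, 640 and 773 in HEC, 352 and 579 in BCSP, 570 and 360 in SSC, 273 and 581 in PCP and 356 and 305 in BLSP. The last 4 populations overlapped in a chain of neighbours, and the stem and progenitor mean minus the downstream mean was -0.02 ± 0.16 on the log2 scale (SE, adjusted p = 0.952). Itga4 was the scarcest member, with 0 to 18 counts in each stem and progenitor library (0 to 0.568 CPM) and 0.936 to 5.07 CPM downstream. The groups did not overlap, and the log2 difference was -3.06 ± 0.61 (SE, adjusted p = 0.000586). Itga9 varied least, by 2.38-fold from BLSP (19.4 and 16.8 CPM) to pBCSP (7.83 and 7.35), and was lower in the stem and progenitor mean by a log2 difference of -0.64 ± 0.15 (SE, adjusted p = 0.00237) although the libraries overlapped.

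In all, 7 members were lower and 1 was higher in the stem and progenitor populations, and Itga3 and Itga5 did not pass. Of the 20060 genes tested, 28.3% were called lower and 23.1% higher. The share of them without overlap between stem and progenitor and downstream libraries was not counted. The median log2 difference was -1.11 over the members and -0.11 over all genes tested. These 8 calls held without each of the 16 libraries in turn. Some markers of other cells moved in the same direction as the 7 members. Every downstream library was above every stem and progenitor library for 3 of 4 stroma markers (Cxcl12, Pdgfra and Pdgfrb, with a list sum of 120 to 192 CPM against 308 to 2589 downstream), for 5 of 6 erythroid markers, for 1 of 6 osteoblast markers (Col1a1), for 1 of 5 leukocyte markers (Ptprc) and for 1 of 4 megakaryocyte and platelet markers (Itga2b). In the opposite direction, 2 of 6 chondrocyte markers (Col9a1 and Matn1) were lower in every downstream library than in every stem and progenitor library. The part of these markers in the differences of the members was not tested. When all 8 populations were compared together, the 10 members differed among them at an adjusted p of at most 0.0217, as did 40.1% of all genes tested. The call of Itga4 was lost without the first BLSP library (adjusted p = 0.0647) and that of Itga10 without the first THY library (0.0543). For Itga9 it was lost without either pBCSP library, the second THY library or the first BLSP library (0.0597 to 0.0728).

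Each population was also set against the mean of the other 7, which gave 37 called pairs of member and population, beside 17.1% of such pairs over all genes. In THY, Itgb1 (0.90 on the log2 scale), Itga2 (2.38) and Itga11 (1.09) were higher and Itga3 (-1.32) and Itga10 (-1.29) lower. PCP had higher Itgb1 (0.68), Itga1 (0.77) and Itga11 (1.63) and lower Itga3 (-1.34). Endothelial markers, 5 genes in all, summed to 85.3 and 84.3 CPM in the PCP libraries and to at most 20.7 CPM in the other input libraries, and their part in the PCP values was not tested. BLSP had higher Itgb1 (0.45), Itga2 (1.72), Itga4 (2.46), Itga6 (1.21) and Itga11 (1.28) and lower Itga5 (-0.91). In 6C3, Itga3 (1.21) and Itga5 (0.77) were higher, and in HEC, Itga1 (0.71), Itga3 (2.32) and Itga6 (1.06) were higher. The stem and progenitor populations had 15 lower and 2 higher calls. Itgb1 (-1.11 to -0.46), Itga2 (-2.27 to -1.31), Itga6 (-1.45 to -0.75) and Itga11 (-1.59 to -1.10) were lower in each of SSC, pBCSP and BCSP, Itga1 was lower in SSC (-0.67) and pBCSP (-1.10), and Itga9 was lower in pBCSP (-0.86). The higher ones were Itga10 in SSC (0.71) and Itga3 in pBCSP (0.98). With library size alone as the scaling, the calls of Itga10 in SSC (adjusted p = 0.0634), Itga5 in BLSP (0.0807) and Itga5 in 6C3 (0.0830) were lost. Itga10 in SSC also rested on 1 library, since it fell to 0.33 (adjusted p = 0.594) without the second SSC library.

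Levels were compared between members per kb of exon. The mean over the 8 populations was 131 CPM per kb for Itgb1, 125 for Itga5 and 15.0 for Itga11, and the other 7 members were at 0.104 (Itga4) to 4.50 (Itga10). Itga5 thus made up most of the alpha subunit mRNA in each population, from 60.5% of the per-kb sum in BLSP and 63.5% in PCP to 91.2% in pBCSP. Itga11 was the second share in PCP (24.8%), BLSP (23.3%) and THY (12.5%), whereas Itga10 exceeded it in SSC (6.23% against 5.54%) and BCSP (5.17% against 4.27%), where the 2 replicates of the shares overlapped. The 4 collagen receptor subunits together held 31.2% in PCP and 30.3% in BLSP, and 6.15% in pBCSP. The per-kb level of Itgb1 divided by that of the summed alpha subunits was 0.453 to 0.670 in the stem and progenitor libraries and above 1 in each PCP, THY and BLSP library (1.02 to 1.74), with 0.630 to 0.762 in 6C3 and HEC. These shares are of mRNA and were given no test.

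**Figure D2:**
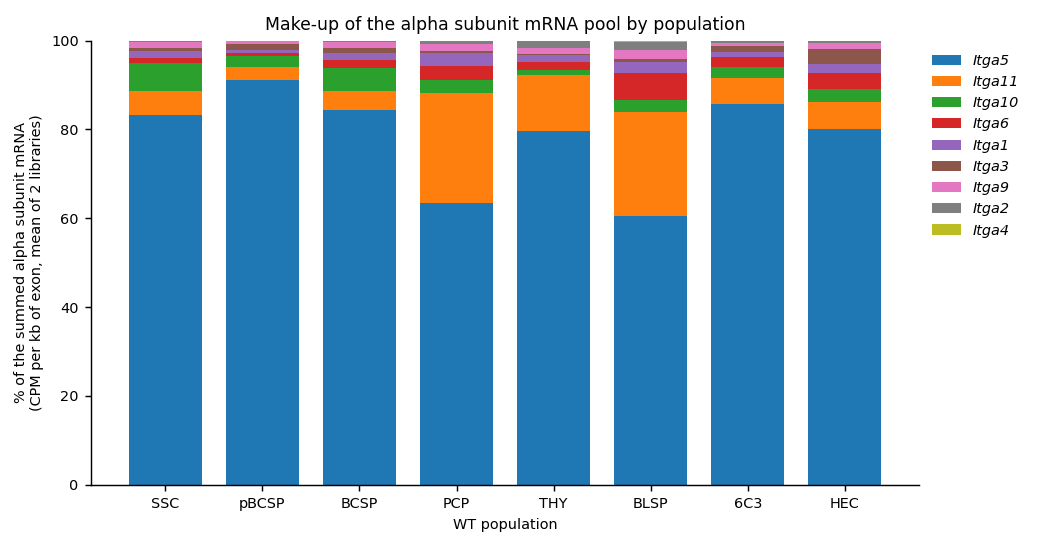
Share of each alpha subunit in the summed alpha subunit mRNA (CPM per kb of exon, mean of 2 libraries, linear axis from 0 to 100%) in each WT population. Itga5 (blue) fills 60.5% to 91.2% of each bar and Itga11 (orange) is widest in PCP at 24.8%.

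By likeness of pattern, the genes closest to Itgb1 over the 16 WT input libraries were Tspan9 (Pearson r = 0.979), Frmd6 (0.976), Zeb1 (0.973), Ncald (0.972) and Vash2 (0.972), among 8569 genes at a mean of at least 10 CPM. For Itga2 they were Slc25a24 (0.941), Tnmd (0.941), Nbn (0.931), Fam129a (0.930) and Lnp (0.930). For Itga4, at its low counts, they were Ppm1a (0.941), Ptms (0.909), Msl3l2 (0.907), Hist1h2bc (0.904) and Ing1 (0.903). The libraries share their populations, so these values describe the order of the 8 populations and carry no test.

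The ligands and the adaptors of integrins were examined as lists. All 3 other alpha partners of beta-1 were lower in the stem and progenitor populations, namely Itga7 (-3.37 on the log2 scale), Itgav (-1.21), which encodes the sort marker CD51, and Itga8 (-1.12). Of 7 other beta subunits, 6 were lower, among them Itgb3 (-2.84), Itgb8 (-2.13), Itgb5 (-1.11) and the leukocyte subunit Itgb2, and Itgb7 did not pass. Among 25 activators and adhesion adaptors, 11 were lower, 2 higher and 12 did not pass, with a median of -0.33. The lower ones included the actin crosslinker Actn1 (-2.41), vinculin Vcl (-1.50), tensin Tns1 (-1.21), the Ilk partner Lims1 (-1.14) and the talins Tln1 (-0.84) and Tln2 (-0.69), and the higher ones were Lims2 (1.26) and Tns2 (1.07).

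The collagen ligands split by tissue. The 3 collagens higher in the stem and progenitor populations were the cartilage collagens Col9a1 (2.43), Col2a1 (1.95) and Col11a1 (1.48), and the other 7 were lower, such as Col1a1 (-3.66), Col3a1 (-2.93) and Col1a2 (-1.62). Col1a1 is also 1 of the osteoblast markers and Col2a1 and Col9a1 are chondrocyte markers. Of 10 laminin chains, 8 were lower, among them Lamb1 (-4.25), Lamc1 (-3.09) and Lama4 (-1.94), and none was higher. Of 8 fibronectin and other ligands of alpha-4, alpha-5 and alpha-9, 4 were lower (Tnc at -3.92, Vcam1 at -2.97, Fbn1 at -1.29, and Madcam1), Spp1 was higher (0.99), and Fn1 itself was at 0.01 and did not pass. The shares called over all genes, given above, are the background to these counts.

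**Figure D3:**
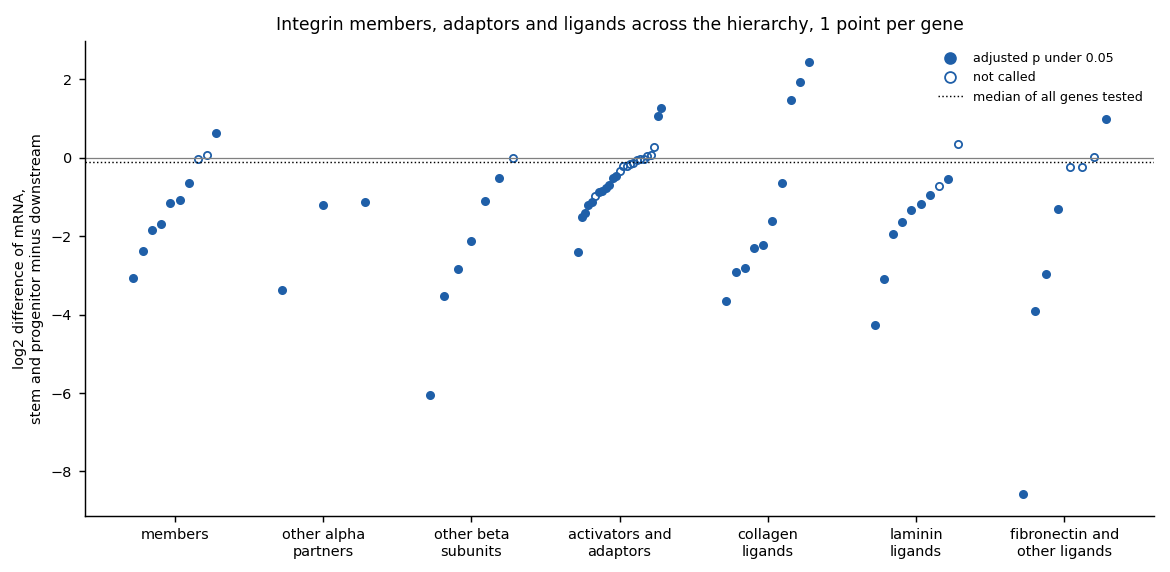
Log2 difference of input mRNA between the stem and progenitor mean and the downstream mean for each gene of the members and 6 lists (filled points have an adjusted p under 0.05 and the dotted line is the median of all genes tested, -0.11). Most filled points lie below the line, and the 3 cartilage collagens stand above it at 1.48 to 2.43.

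The ratio of IP to input set the members apart from each other more than it set the populations apart. On the log2 scale, with TMM scaling over all libraries, the median of the 14161 genes at a mean of at least 1 CPM was between -0.25 and -0.09 in the WT pairs. Itga5 lay below the input in 16 of 16 WT pairs, from -2.96 to -1.48, and Itgb1 in 16 of 16, from -1.01 to -0.15. Itga11 was below 0 in 15 pairs (median -0.98) and Itga3 in 14 (median -1.05). Itga6 and Itga9 were above 0 in all 16 pairs, from 0.35 to 1.48 and from 0.30 to 2.17, and Itga10 was above 0 in 15 (median 0.89). In edgeR's test of IP against input within a population, Itga5 was lower by log2 values of -1.87 (BCSP) to -2.81 (6C3), with adjusted p of at most 0.0420 in each of the 8.

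A gene was taken as m6A-tagged where its IP exceeded its input by more than 1 on the log2 scale with an unadjusted p under 0.05, the thresholds of the study's methods. In SSC, 3 members passed (Itga6 at 1.52, Itga9 at 1.65 and Itga10 at 1.67), beside 10.4% of all genes tested. In pBCSP, 3 passed (Itga6 at 1.09, Itga9 at 1.95 and Itga10 at 1.39), beside 12%, and Itga4 was too low there to be tested. BCSP had 2 (Itga6 at 1.03 and Itga10 at 1.89), beside 6.67%, PCP had 1 (Itga9 at 1.40), beside 10.6%, and 6C3 had 2 (Itga2 at 1.12 and Itga6 at 1.03), beside 14.5%. None passed in THY, BLSP or HEC, where 12.4%, 12.4% and 13.5% of all genes did. An unadjusted p under 0.05, below or above the input, was reached there by 6, 6 and 8 of the 10 members. Over all genes it was reached by 6246 of 15923 in THY, 7438 of 18425 in BLSP and 7224 of 16541 in HEC. Of the 11 tags, 7 also had an adjusted p under 0.05.

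Itga10 kept its tag in SSC, pBCSP and BCSP without each library in turn, as did Itga9 in pBCSP. In SSC, Itga6 (adjusted p = 0.516) and Itga9 (adjusted p = 0.429) lost theirs without the first input library, as their unadjusted p passed 0.05. Itga6 in pBCSP fell to 0.99 without the first IP library and to 0.995 without the second input library. Itga6 in BCSP was lost without either input library or the second IP library (0.72 to 1.09, adjusted p of 0.211 to 0.678). In PCP, Itga9 fell to 0.84 without the first IP library. In 6C3, Itga6 fell to 0.74 without the first input library, to 0.95 without the second IP library and to 0.93 with no filter on low counts, and Itga2 was lost without the first input library (0.67, adjusted p = 0.431) or the first IP library (1.06, adjusted p = 0.174).

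**Figure D4:**
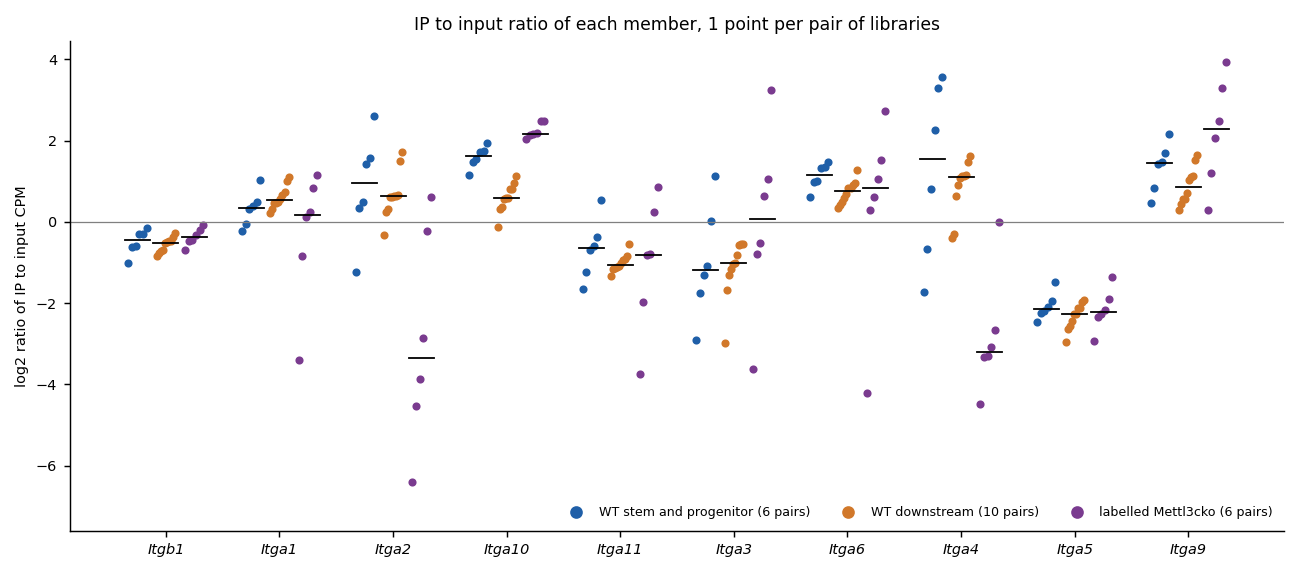
Log2 ratio of IP to input CPM of each member, 1 point per pair of libraries, for WT stem and progenitor (blue), WT downstream (orange) and labelled Mettl3cko (purple) pairs, with the median as a line. Itga5 lies between -2.96 and -1.36 in every pair, and for Itga10 the blue points (1.15 to 1.95) lie above the orange (-0.13 to 1.14).

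Itga10 was the member whose ratio followed the hierarchy. Its log2 ratio in the 2 WT pairs was 1.71 and 1.48 in SSC, 1.54 and 1.15 in pBCSP, and in BCSP it was 1.95 and 1.74. Downstream it was 0.58 and -0.13 in PCP, 0.96 and 0.58 in THY, 1.14 and 0.82 in BLSP, 0.82 and 0.32 in 6C3 and 0.58 and 0.36 in HEC. The 2 groups did not overlap, by a narrow margin between pBCSP and BLSP. The IP counts behind these ratios were 1753 to 3568 in the stem and progenitor libraries and 297 to 938 downstream, and the input counts were 586 to 1198 and 174 to 1208. The ratio was higher in the stem and progenitor populations by 1.17 ± 0.24 on the log2 scale (SE, adjusted p = 0.00305), and by 0.98 to 1.32 when single libraries were left out.

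No other member was called in that contrast, in which 4.84% of all genes were. Itga11 (0.61, adjusted p = 0.118), Itga6 (0.61, 0.132), Itga9 (0.63, 0.179) and Itga5 (0.46, 0.241) were all above 0 with unadjusted p under 0.05. Over all genes, 3989 of 25365 had an unadjusted p under 0.05 in this contrast, in either direction. With the replicate number as a block, 2 members were called, since Itga5 (0.45, adjusted p = 0.0344) joined Itga10, and 1761 genes were called, against 1227 without it. The Itga11 call was gained without the first BCSP IP library (0.76, adjusted p = 0.0252). The scaling bears on this contrast, because DESeq2 size factors moved the median of all genes by -0.16 and the share of higher among called genes from 63.3% to 40.5%, and Itga10 was then at 1.01 (adjusted p = 0.00898). When the ratio was compared among all 8 populations at once, no member was called by edgeR and 3 had an unadjusted p under 0.05. Of all 25365 genes, 123 (0.485%) were called and 2022 had an unadjusted p under 0.05. Itga10 was at an adjusted p of 0.209 in that comparison, at 0.00392 with the replicate block, which called 1 member, and at 0.0371 in DESeq2, which also called 1. Both settings called more genes, with 923 for the block and 999 for DESeq2.

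In the lists, the ratio was higher in the stem and progenitor populations for 3 of 10 collagen ligands (Col2a1 at 0.89, Col3a1 at 1.01 and Col11a1 at 0.60), for Tnc (1.73) and Fn1 (0.89) of the 8 fibronectin and other ligands, and for Itgb5 (1.35) of the 7 other beta subunits. Among 25 activators and adaptors, Actn1 (1.08) and Kank2 (1.11) were higher and Bcar1 (-1.24) was lower, and among 10 laminin chains Lamb1 (1.21) and Lamc1 (0.95) were higher and Lama1 was lower. None of the 3 other alpha partners was called.

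The label Mettl3cko was first checked on Mettl3 itself. Its input counts were 454 and 449 in WT and 486 and 593 in labelled Mettl3cko SSC, 369 and 526 against 759 and 741 in pBCSP, and 571 and 618 against 458 and 607 in BCSP. The log2 differences were 0.19, 0.69 and -0.15, with adjusted p of 0.817, 0.618 and 0.901. These counts are over the whole gene. The sources used here do not say which part of it is floxed, so whether the counts check the deletion is not known. The study reports loss of Mettl3 by qRT-PCR and, in SSC, by Western blot. It also reports lower m6A in stem and progenitor cells by dot blot, and in SSC, pBCSP and BCSP by its m6A profiles. The genotype given in the labels is wild type also for the libraries named Mettl3cko. Erythroid markers summed to 9.63 to 50.8 CPM in the input libraries labelled Mettl3cko against 0.702 to 5.64 in the WT libraries of the same populations. Of these 6 markers, 3 (Hba-a1, Hba-a2 and Hbb-bs) were higher in every library labelled Mettl3cko, and their part in the differences below was not tested.

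Itga11 was the member whose mRNA was lower in the libraries labelled Mettl3cko when SSC, pBCSP and BCSP were tested together. Its input CPM was 33.8 and 28.9 in WT and 18.4 and 14.4 in labelled Mettl3cko SSC, 26.8 and 30.5 against 22.5 and 16.8 in pBCSP, and 24.0 and 22.2 against 19.3 and 11.4 in BCSP. In each of the 3 populations both labelled Mettl3cko libraries lay below both WT libraries. The share of all genes with this order was not counted. The log2 difference over the 3 populations was -0.68 ± 0.16 (SE, adjusted p = 0.0238), and 7.17% of all genes were called. The call was lost (adjusted p = 0.0534 to 0.0673) without any 1 of the 4 SSC libraries, the second WT pBCSP library or the second labelled Mettl3cko BCSP library. Unadjusted p under 0.05 was also reached by Itga1 (-0.48, adjusted p = 0.117), Itga10 (-0.54, 0.155), Itga5 (0.49, 0.159) and Itga6 (0.54, 0.0924), while Itgb1 was at -0.01 ± 0.12. Over all genes, 3827 of 17487 had an unadjusted p under 0.05 in this test.

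Within a population, the study's thresholds (a log2 value beyond 0.5 and an unadjusted p under 0.05) called 4 member and population pairs. In SSC, where 14.0% of all genes were called, Itga5 was at 570 and 360 CPM in WT and 805 and 861 in labelled Mettl3cko (0.84 ± 0.24, adjusted p = 0.207), Itga11 was lower (-0.94 ± 0.25, adjusted p = 0.197), and Itga9 was at 8.54 and 11.8 against 6.35 and 3.38 CPM (-1.08 ± 0.45, adjusted p = 0.328). In BCSP, where 12.9% were called, Itga5 was at 352 and 579 in WT and 790 and 854 in labelled Mettl3cko (0.82 ± 0.27, adjusted p = 0.290). None was called in pBCSP, where 8.36% of all genes were and Itga5 was at 835 and 903 against 704 and 757 CPM (-0.24 ± 0.20). None of the 4 passed at an adjusted p, nor did any of the genes tested in these 3 comparisons.

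The Itga5 calls rested on single WT libraries, since they were lost without the second WT SSC library (0.55, adjusted p = 0.835) and without the first WT BCSP library. The call of Itga11 in SSC was lost without the first WT SSC library (adjusted p = 0.572) and that of Itga9 without either WT SSC library or the second labelled Mettl3cko SSC library (adjusted p of 0.459 to 0.877). Leaving out the second labelled Mettl3cko pBCSP library gave 9 calls in place of 4, by adding Itgb1, Itga1, Itga3, Itga9 and Itga10 in pBCSP. The test of whether the change differed between the 3 populations called no member, with the smallest p for Itga5 (adjusted p = 0.941), and 0 of 18655 genes (0%). Of these 18655 genes, 839 had an unadjusted p under 0.05.

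**Figure D5:**
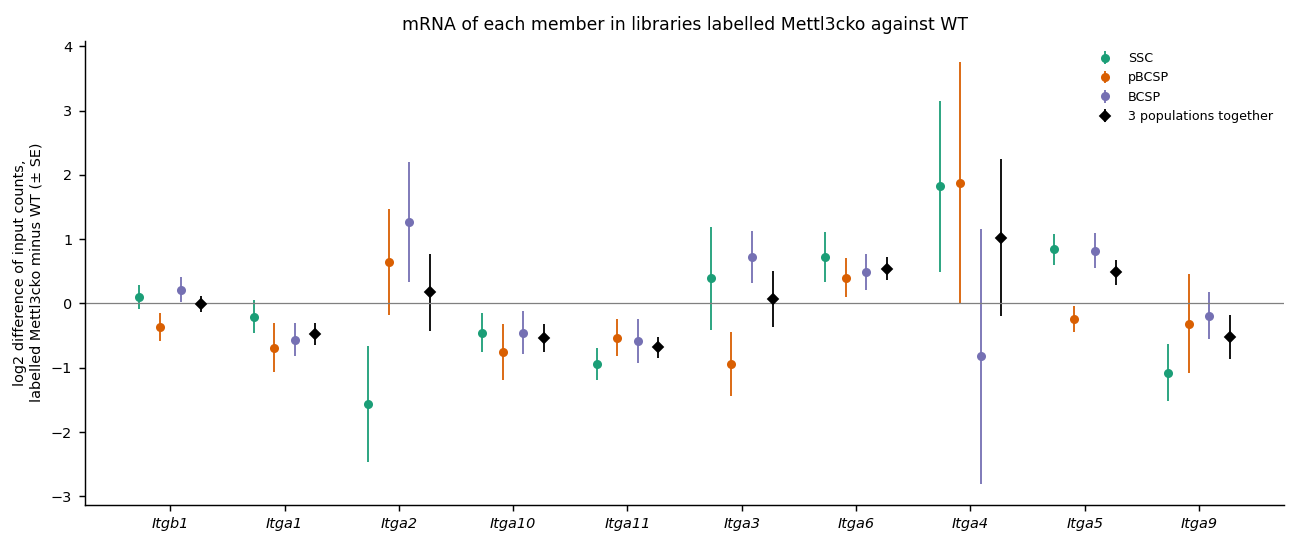
Log2 difference of input counts between libraries labelled Mettl3cko and WT for each member in SSC, pBCSP and BCSP (coloured points) and over the 3 together (black diamonds), with bars of ± 1 SE. Itga11 lies below 0 in each of the 3 populations (-0.94, -0.54 and -0.59), and Itga5 is at 0.84 in SSC and 0.82 in BCSP but at -0.24 in pBCSP.

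The share of the collagen receptor subunits in the alpha subunit mRNA, which carries no test, was 9.95% to 16.9% in WT SSC and 5.05% to 5.19% in labelled Mettl3cko SSC. It was 8.32% to 14.0% against 4.63% to 4.71% in BCSP and 5.54% to 6.75% against 4.85% to 5.03% in pBCSP, without overlap of the 2 groups in any of the 3. The sum that these shares divide by was itself higher in labelled Mettl3cko SSC (176 and 189 CPM per kb against 132 and 92.2 in WT) and BCSP (175 and 188 against 88.1 and 134), where Itga5 is most of it, and lower in pBCSP (153 and 167 against 184 and 202). In the lists, no collagen ligand, laminin chain, other alpha partner or other beta subunit was called over the 3 populations. Emilin1, a ligand of alpha-4 and alpha-9, was higher (1.32), and of the 25 activators and adaptors Actn4 (0.63) and Bcar1 (0.54) were higher and Lims2 (-1.20) and Tns3 (-0.73) lower.

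The ratio of IP to input in the libraries labelled Mettl3cko was more scattered than in WT. The median log2 ratio of the 14161 genes was between -0.95 and -0.27 there, below that of every WT pair (-0.25 to -0.09). Itga10 was again above the input, at 2.19 and 2.48 in SSC, 2.49 and 2.15 in pBCSP and, for BCSP, 2.03 and 2.15. All 6 pairs lay above the 6 WT pairs of these populations. The share of all genes that separate in this way was not counted. The test of the difference did not pass in SSC (0.82, adjusted p = 0.578), pBCSP (0.90, adjusted p = 0.618) or BCSP (0.25, adjusted p = 0.981). In these comparisons 14.5%, 11.9% and 10.3% of all genes were called at an unadjusted p under 0.05. Of the called genes, 1943 were lower and 562 higher in SSC, 1726 lower and 361 higher in pBCSP, and 1376 lower and 438 higher in BCSP. Itga10 passed in SSC without the first labelled Mettl3cko IP library (1.13, an unadjusted p under 0.05). Itga5 stayed between -2.92 and -1.36. Other members were split between replicates, as for Itga6 in pBCSP, with 1041 and 23 IP counts, and Itga11 in SSC, with 27 and 705.

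Itga2 and Itga4 had 0 IP counts in both libraries labelled Mettl3cko of SSC and of pBCSP. For Itga2 the IP counts were 57 and 23 in WT SSC and 103 and 235 in WT pBCSP, while the input counts of the labelled Mettl3cko libraries were 12 and 29 in SSC and 187 and 47 in pBCSP. A count of 0 allows up to 3 counts in a library, for counting error only. In labelled Mettl3cko BCSP, Itga2 was not at 0 (102 and 86 IP counts), whereas Itga4 was at 0 in both IP libraries, with input counts of 0 and 12 and WT IP counts of 4 and 38. For Itga4 the input counts were 41 and 19 in SSC and 20 and 16 in pBCSP, and the WT IP counts were 31 and 8 in SSC and 52 and 2 in pBCSP. The 4 pairs of Itga2 and Itga4 in SSC and pBCSP were the only ones called for the change of the ratio at an unadjusted p under 0.05, with an adjusted p of 0.262 for Itga2 and 0.246 for Itga4 in SSC and of 0.198 and 0.413 in pBCSP. With the replicate number as a block, 1 of the 4 was called, Itga2 in pBCSP. The SSC calls of both genes were lost without either WT input library, that of Itga2 also without the second labelled Mettl3cko input library and that of Itga4 without the first. In pBCSP the call of Itga4 was kept only when the second WT IP library was the one left out. Leaving out the first labelled Mettl3cko IP library of SSC or of pBCSP gave 7 calls in place of 4.

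In the libraries labelled Mettl3cko, a count of 0 in both IP libraries was common among genes with a like input. Of the genes whose summed input was between 0.5 and 2 times that of Itga2, at 41 counts in labelled Mettl3cko SSC and 234 in pBCSP, 53.7% were at 0 in both labelled Mettl3cko IP libraries of SSC and 17.2% in pBCSP. For Itga4, at 60, 36 and 12 input counts, the shares were 47.6% in SSC, 53.7% in pBCSP and 63.2% in BCSP. The shares in WT were lower, each at the WT input of the gene. For Itga2, at 115 and 141 input counts, they were 5.52% in WT SSC and 1.57% in WT pBCSP. For Itga4, at 16, 9 and 20 input counts, they were 34.1% in WT SSC, 36.8% in WT pBCSP and 35.0% in WT BCSP.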

How the data were processed

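SLIM-seq and matched input libraries of mouse skeletal populations were analysed from the deposited table of whole-number counts per gene, without normalization. The authors trimmed reads with fastp 0.20.1, aligned them to GRCm38 with HISAT2 2.2.1 and counted them with featureCounts 2.0.1. The annotation and strand setting are not given in the sources used here, so overlapping genes may share reads. The deposited tables of the authors' own comparisons, with their log2 fold changes, p-values and scores, were not used. The 128 entries that carry a date shared by a spreadsheet program were left out (0.390% or less of each library).

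Counts were tested with edgeR 4.0.16 in R 4.3.3 (quasi-likelihood F test, TMM factors, filterByExpr), with Benjamini-Hochberg adjustment over all genes of each fit. Log2 CPM used a prior count of 2. Figures were drawn with matplotlib 3.10.9. The WT populations were fitted together (input alone, or IP and input), each WT population was fitted apart for tags, and the 3 populations of both genotypes were fitted apart and together. Each condition has 2 replicates, which the study gives as independent experiments, and no 2 replicates agreed within sampling noise. With 2 against 2 libraries no exact permutation test can reach 0.05, and the p-values given within a population are those of the fit over all genes. Tags and ratios were fitted without the replicate number, and the replicate block was an alternative. IP and input of 1 number were taken to share their cells, since the study states that sorted cells of a batch were divided between both. The replicate differences of IP and input correlated across genes at 0.0378 to 0.426 (median 0.119) in the 11 sets. Alternatives were no filter on low counts, scaling by DESeq2 size factors or by library size alone, DESeq2 1.42.0 as the test, the replicate block, an adjusted p threshold and leaving out each library. Where the libraries of 2 groups are said not to overlap, the share of all genes that separate in this way was not counted. The scripts were tested on simulated data.

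The members, lists and tests were chosen with earlier results of these data known. All members are named, and up to 4 genes of each list are those called with the smallest p in the contrast of stem and progenitor with downstream populations. Single values of 2 list genes are not reported here. The other genes named from the lists were chosen after their values were seen. The genes like a member are given for Itgb1 and the 2 members with the widest range of population means. The labels give the same batch for all libraries, so none could be compared. Depth limits Itga4 and Itga2 most, and a count of 0 was taken to allow 3 counts, for counting error only. Symbols were matched to GENCODE vM21 for 44687 of the 46831 genes.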

Additional observations from a re-analysis of the deposited data

Results flagged for a closer look

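The ratio of IP to input of Itga10 differed between groups of populations under the same contrast, which is why it is given here. By the interaction of assay with population, the log2 ratio was higher by 1.17 ± 0.24 (SE, adjusted p = 0.00305, edgeR) in SSC, pBCSP and BCSP than in the 5 downstream populations. All 6 stem and progenitor pairs (1.15 to 1.95) lay above all 10 downstream pairs (-0.13 to 1.14), and 4.84% of all genes were called in that contrast. The share of all genes whose pairs separate in this way was not counted. The part of the reads that Itga10 shares with the overlapping Gm42957 was not tested.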

How the results depend on the processing

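The counts of members called held within 1.5 times in most settings. Leaving out single libraries gave 8 to 10 members differing among the 8 WT populations, 8 in each case between stem and progenitor and downstream mRNA, 31 to 39 pairs of member and population against the other 7, 9 to 12 m6A tags, 0 in each case for the ratio among populations, 1 to 2 for the ratio between stem and progenitor and downstream, 2 to 9 pairs in labelled Mettl3cko within populations, 0 to 1 over the 3 together, 0 for the difference between populations and 2 to 7 for the change of the ratio. With an adjusted p in place of an unadjusted one, 7 of the 11 tags, 0 of the 4 mRNA pairs in labelled Mettl3cko and 0 of the 4 ratio pairs were called. Without a filter on low counts, 7 mRNA pairs in labelled Mettl3cko and 2 members over the 3 populations together were called (Itga5 at adjusted p = 0.0103 beside Itga11). Over the 3 populations together, 1973 genes were then called, against 1253 with the filter. DESeq2 called 1 member for the ratio among the 8 populations and 2 for labelled Mettl3cko over the 3 populations (Itga6 at adjusted p = 0.0401 was added).

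For IP with input, the replicate block gave 11 tags, 1 member for the ratio among populations, 2 for the ratio between stem and progenitor and downstream and 1 pair for the change of the ratio. Over all genes, the block called 923 for the ratio among populations, against 123 without it. For the ratio between stem and progenitor and downstream it called 1761, against 1227. Across WT populations and between genotypes, the sources used here link the samples only by a replicate number. Whether populations of 1 number came from the same mice is not stated, and the fits without the block treat them as independent. Replicate deviations correlated at -0.394 to 0.279 over 28 pairs of WT populations, with 0.165 to 0.279 among SSC, pBCSP and BCSP. Between genotypes they correlated at -0.0436 to 0.0379. With the block there were 10, 8 and 36 calls among WT populations (Itga3 in pBCSP was lost at adjusted p = 0.0548). For labelled Mettl3cko it gave 6 mRNA pairs (Itga3 and Itga10 in pBCSP were added) and 0 members for the difference between populations. Over the 3 populations together it called 2 members (Itga10 at adjusted p = 0.0350 was added) and 1534 genes, against 1253 genes without it. One value changed sign past its threshold, Itga11 in SSC for the change of the ratio, at 0.70 with all libraries and between -2.67 (without the second labelled Mettl3cko IP library) and 1.64 (without the first) when single libraries were left out, and the cause was not tested. Each value of a single member was compared with its value under each alternative setting. Of these comparisons, 4462 kept their side of the threshold, whether called or not, 116 lost it, 82 gained it, 28 moved and 1 turned. Depth limits Itga4 and Itga2, at few counts in the stem and progenitor libraries.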
